A study of Mus musculus with 9 samples.

Results

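The transforming growth factor beta (TGF-beta) and bone morphogenetic protein (BMP) pathway was followed through 48 listed genes in 9 arrays of mouse mammary tumours, and 47 of them were measured among 19938 genes in all. A member was taken where the annotation of an array feature gave exactly 1 gene symbol and that symbol was on the list, and each of the 47 had a single such feature. Gdf15, a divergent ligand of the family, is not analysed here. The tumours came from 3 transplantable cell lines, NDL, Met1 and SSM2, with 3 samples for each line. Cultured cells had been injected on both sides of the animal into uncleared fat pads, the hosts were FVB/NJ females of 6 to 8 weeks, and tumours 5 to 10 mm wide were frozen. NDL cells bear an activated Erbb2 and Met1 cells the polyoma middle T antigen, each driven by the mouse mammary tumour virus promoter, whereas SSM2 is an oestrogen receptor-positive line. Each group is thus a single cell line in a shared host strain, sex and site, and every sample also holds host stroma.

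As background, TGF-beta is secreted in an inactive complex that latent TGF-beta binding proteins (Ltbp genes) tie to the matrix. Once freed, it binds Tgfbr2 and Tgfbr1, which phosphorylate Smad2 and Smad3, and activins reach the same Smads through Acvr2a, Acvr2b and Acvr1b. BMPs act through Bmpr2 or the activin type II receptors with Bmpr1a, Bmpr1b or Acvr1, which phosphorylate Smad1 and Smad5. Both arms share Smad4, are curbed by Smad6 and Smad7, and are checked outside the cell by antagonists such as follistatin and noggin. The Id genes, which encode inhibitors of basic helix-loop-helix transcription factors, are direct targets of the BMP arm. In the mammary gland TGF-beta restrains ductal growth, and Tgfb3 is known for its rise at weaning.

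Values are log2 signals after robust multi-array averaging (RMA), with no read depth. The upper quartile of gene signal lay between 7.84 and 8.09 on the 9 arrays, lowest in NDL replicates 1 and 2. Pearson correlations across genes between arrays of 1 line were 0.947 to 0.986 (NDL), 0.987 to 0.995 (Met1) and 0.962 to 0.983 (SSM2), and those between lines 0.891 to 0.949. The labels name no separate animals, so each p measures only the spread between these samples, which may be technical. The 10 epithelial markers listed for this work averaged 10.51 ± 0.06 in NDL, 7.20 ± 0.93 in Met1 and 10.87 ± 0.10 in SSM2 (SD, n = 3), and all 10 were called lower in Met1 than in either other line. The 8 macrophage markers averaged 8.48 ± 0.35, 9.98 ± 0.10 and 8.81 ± 0.68 in the same order, and the 10 fibroblast markers 8.95 ± 0.13, 8.76 ± 0.44 and 9.70 ± 0.77. The 3 measured Y-linked transcripts, which female hosts do not carry, ranged from 2.61 to 3.85. The 25th percentile of gene means was 4.91, and a fold against a mean below it has an uncertain size. In tumour tissue, fewer cells of a type and less RNA per cell cannot be told apart.

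NDL tumours stood apart within the pathway by high Tgfb2, Tgfb3 and Id4 and by low Ltbp1, Smad1, Smad5 and Id3. Acvr1 and Id1 were also lowest in NDL, but their calls against SSM2 ended in 6 and 11 of 19 alternatives. Met1 tumours had the highest Bmp2, Id1 and Acvr1. Bmp7 was lowest in Met1, but its call against NDL ended in 4 of 19 alternatives. SSM2 tumours had the highest Bmp7 and Fst and the lowest Id2 and Tgfbr3. A gene was called where limma's adjusted p, corrected over all genes by the Benjamini-Hochberg method, was under 0.05. In the moderated F-test over the 3 lines 25 of 47 members were called, beside 25.1% of all genes. Between NDL and Met1 17 members were called, beside 19.1% of all genes. Of these 7 were higher in NDL (8.88% of all genes were) and 10 lower (10.2%). Between NDL and SSM2 21 members were called (16.9% of all genes), 8 higher (9.35%) and 13 lower (7.52%) in NDL. Between Met1 and SSM2 13 were called (11.8%), 8 higher (7.10%) and 5 lower (4.71%) in Met1. The members' median difference was close to that of all genes, at -0.03, -0.11 and 0.06 against 0.06, 0.09 and 0.04 for the comparisons in that order. Their median absolute difference was 0.52, 0.56 and 0.46, against 0.25, 0.28 and 0.18 for all genes. All genes were not matched to the members for signal or spread. Of the 47 members 2 had a mean under the 25th percentile of gene means. The median within-line SD was 0.28 for members and 0.20 for all genes. The pathway therefore had no common direction, and its members differed in both directions in each comparison.

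**Figure D1:**
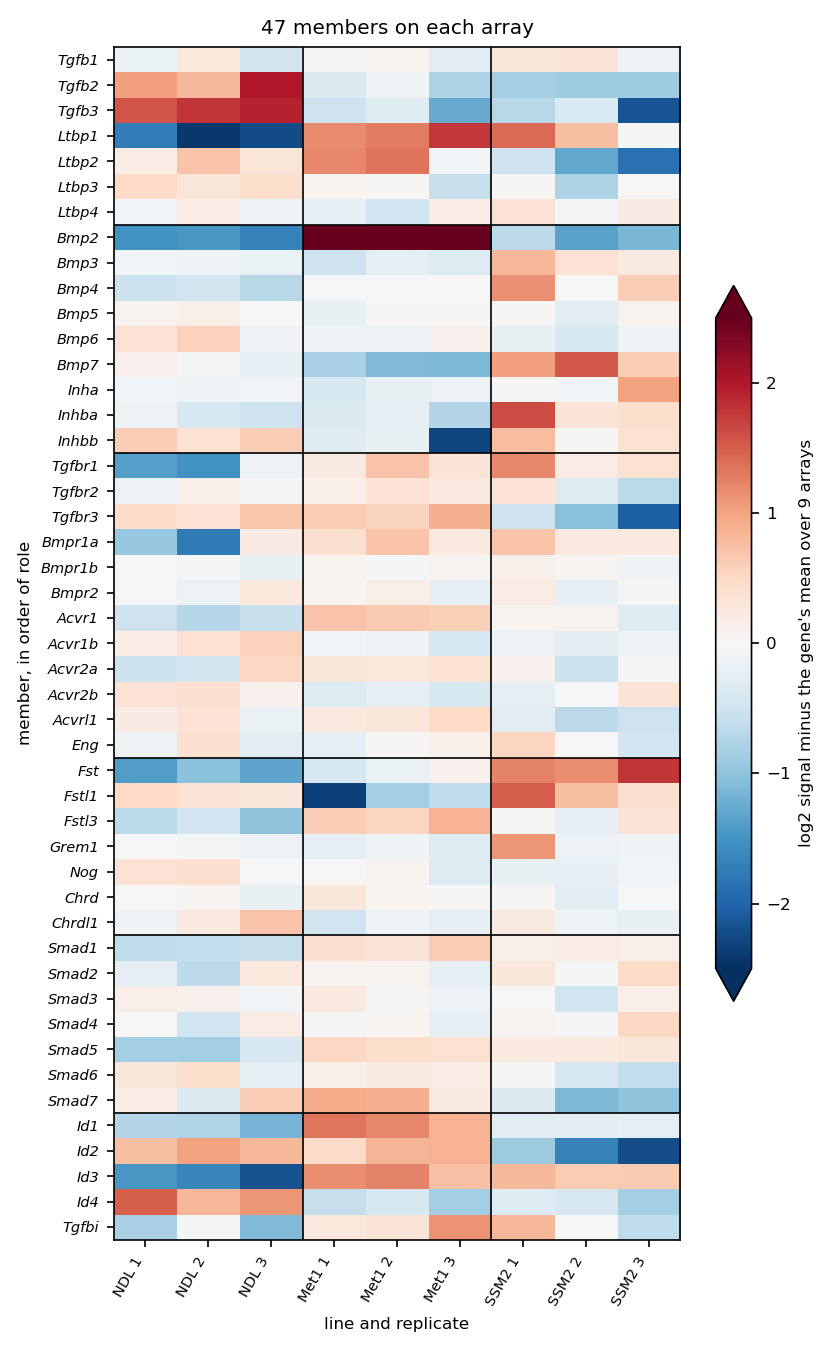
Each row is a member and each column an array, grouped by line; colour is the log2 signal minus that gene's mean over the 9 arrays, with colours limited at 2.5 in either direction, and black lines separate the lines and the roles. Bmp2 is dark red on the 3 Met1 arrays, Tgfb3 and Id4 are red and Ltbp1 and Id3 blue on the 3 NDL arrays.

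Some of these calls ended when a single array was left out, and the share of all genes called moved with the arrays left out too. The NDL against SSM2 calls numbered 12 without NDL replicate 1, where 9.39% of all genes were called, and the lower members fell to 6 without that array and to 8 without NDL replicate 2 or SSM2 replicate 1. The higher members of the same comparison numbered 5 without SSM2 replicate 2. Between NDL and Met1 the higher members numbered 4 without NDL replicate 1, NDL replicate 2 or Met1 replicate 3, and 3 without Met1 replicate 2. Between Met1 and SSM2 the higher members numbered 5 without SSM2 replicate 2 and the lower members 3 without Met1 replicate 1. In each of these settings the share of all genes called was also below that with all 9 arrays. Between NDL and Met1 it was 11.9% without NDL replicate 1, against 19.1%. Between Met1 and SSM2 it was 6.82% without Met1 replicate 1, against 11.8%. These counts alone therefore do not show that members depended on single arrays more than all genes did. With NDL replicates 1 and 2 both left out, so that the remaining NDL array was assumed to vary like the others, the calls in the 3 comparisons were 11, 8 and 10, beside 8.54%, 5.97% and 11.6% of all genes. Of the 51 called differences, 25 passed under every alternative that tested them, and none changed sign under any. These 25 belonged to Tgfb2, Ltbp1, Bmp2, Bmp7, Acvr1, Tgfbr3, Fst, Fstl3, Smad1, Smad5 and the 4 Id genes.

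Among the TGF-beta ligands, Tgfb3 and Tgfb2 were highest in NDL, while Tgfb1 did not pass in any comparison. Tgfb3 (feature 10401673) stood at 11.32, 11.54 and 11.67 on the NDL arrays, at 9.23, 9.45 and 8.48 on Met1 and at 9.05, 9.37 and 7.59 on SSM2. All NDL arrays lay above all others, and the other lines overlapped. Relative to Met1 the NDL mean was up 5.48-fold (a log2 difference of 2.45 with an SE of 0.44, adjusted p = 0.00578), and relative to SSM2 up 7.15-fold (a difference of 2.84, adjusted p = 0.00368). Without NDL replicates 1 and 2 the adjusted p was 0.0896 against Met1 and 0.0779 against SSM2. Tgfb2 (feature 10360920) read 7.36, 7.14 and 8.35 in NDL, 5.99, 6.26 and 5.55 in Met1 and 5.52, 5.46 and 5.45 in SSM2. NDL replicate 3 was the highest of the NDL arrays, and all 3 exceeded every other array. Tgfb2 was 3.22-fold higher in NDL than in Met1 (1.69, SE 0.30, adjusted p = 0.00582) and 4.43-fold higher than in SSM2 (2.15, SE 0.30, adjusted p = 0.00234). Tgfb1, the ligand known for its action on immune and stromal cells, had means of 8.80 ± 0.36, 8.86 ± 0.19 and 9.09 ± 0.22 in NDL, Met1 and SSM2. Its 95% confidence interval for NDL minus Met1 ran from -0.52 to 0.40, and for NDL minus SSM2 from -0.75 to 0.17.

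The latency proteins did not move together. Ltbp1 (feature 10446928), which anchors latent TGF-beta in the matrix, read 7.58, 6.90 and 7.08 in NDL, 10.48, 10.60 and 11.08 in Met1 and 10.72, 10.06 and 9.29 in SSM2. The NDL arrays lay well below all others. NDL was 11.6-fold below Met1 (a log2 difference of -3.54, SE 0.35, adjusted p = 0.000338) and 7.14-fold below SSM2 (-2.84, SE 0.35, adjusted p = 0.00116). Ltbp2, a microfibril protein that does not bind latent TGF-beta, was instead lowest in SSM2, at 8.53, 7.73 and 7.17 against 10.23, 10.40 and 8.96 in Met1 and 9.22, 9.74 and 9.34 in NDL. The SSM2 arrays lay below all others. The differences from SSM2 were 2.06 in Met1 (adjusted p = 0.0179) and 1.63 in NDL (adjusted p = 0.0372). The call between Met1 and SSM2 ended without Met1 replicate 1, Met1 replicate 2 or SSM2 replicate 2 (adjusted p from 0.0596 to 0.0758). That between NDL and SSM2 ended without NDL replicate 1 or 2, Met1 replicate 1 or SSM2 replicate 2 or 3 (0.0564 to 0.118). Ltbp3 and Ltbp4 were not called in any comparison, and their line means spanned 0.66 and 0.36. Ltbp3 was nonetheless higher on every NDL array, at 10.34 to 10.54, than on the Met1 and SSM2 arrays, at 9.28 to 10.10.

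Bmp2 differed most among the members. This ligand of the BMP arm (feature 10476395) read 8.26, 8.14 and 8.27 in Met1, 4.10, 4.15 and 3.92 in NDL and 4.95, 4.28 and 4.47 in SSM2. The Met1 arrays lay far above the rest, whose means of 4.06 and 4.57 were under the 25th percentile of gene means. Bmp2 was 18.0-fold lower in NDL than in Met1 (a log2 difference of -4.17, SE 0.17, adjusted p = 7.52e-06) and 12.6-fold higher in Met1 than in SSM2 (3.65, SE 0.17, adjusted p = 2.01e-05), sizes that depend on the background. NDL and SSM2 did not overlap for it either, with a difference of -0.51 that did not pass (adjusted p = 0.0721), and passed without SSM2 replicate 2 (0.0415).

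Bmp7, Bmp4, Bmp3 and Inhba were highest in SSM2. Bmp7 (feature 10490129), a ligand that signals through Acvr1 and the BMP type I receptors, read 7.95, 8.46 and 7.54 in SSM2, 7.03, 6.89 and 6.73 in NDL and 6.11, 5.83 and 5.80 in Met1. The lines formed 3 separate levels. Met1 was 4.20-fold below SSM2 (log2 difference -2.07, SE 0.22, adjusted p = 0.000732), NDL was 2.15-fold below SSM2 (-1.11, adjusted p = 0.0111) and 1.95-fold above Met1 (0.97, adjusted p = 0.0164). The last call ended without NDL replicate 1, Met1 replicate 2 or Met1 replicate 3 (adjusted p from 0.0625 to 0.0691), and without NDL replicates 1 and 2 the adjusted p against SSM2 was 0.104. Bmp4, a close relative of Bmp2, read 7.35, 6.20 and 6.82 in SSM2, 6.20 on each Met1 array and 5.67, 5.76 and 5.52 in NDL. The Met1 values were identical (SD 0), which lowered the pooled spread behind the SE and p values of Bmp4. Its order was SSM2, Met1, NDL, and of the neighbouring steps neither passed. NDL minus SSM2 was -1.14 (SE 0.25, adjusted p = 0.0163, and 0.0563 without NDL replicate 1). That call also ended with array weights and in a fit of these lines alone. Leaving out SSM2 replicate 2 brought Bmp4 past the threshold between Met1 and SSM2 (adjusted p = 0.0184) and between NDL and Met1 (0.0434).

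Inhba, which encodes the subunit of activin A, read 7.91, 6.59 and 6.71 in SSM2, against 5.75 to 6.16 in NDL and 5.55 to 6.03 in Met1. SSM2 replicate 1 was the highest array by more than 1 log2 unit. NDL minus SSM2 was -1.14 (SE 0.33, adjusted p = 0.0471) and Met1 minus SSM2 was -1.24 (SE 0.33, adjusted p = 0.0441). Each of these calls ended without any 1 of the NDL or Met1 arrays (adjusted p from 0.0552 to 0.145). Bmp3, an atypical BMP that opposes the others, read 6.89, 6.43 and 6.28 in SSM2, 5.91 to 5.99 in NDL and 5.54 to 5.82 in Met1. Met1 minus SSM2 was -0.84 (adjusted p = 0.0112, and 0.0539 without Met1 replicate 1). NDL minus SSM2 was -0.58 (adjusted p = 0.0422), a call that held without SSM2 replicate 3 and ended without any other 1 of the arrays (0.0534 to 0.108).

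Inhbb, the subunit of activin B, was not called. It read 8.06, 8.19 and 6.09 in Met1, against 8.76 to 9.01 in NDL and 8.42 to 9.16 in SSM2. Met1 replicate 3, the array with the lowest epithelial marker mean (6.13), lay about 2 log2 units under the other Met1 arrays, and the Met1 arrays were below all others. The difference of NDL from Met1 was 1.47 (SE 0.50, adjusted p = 0.077), and was called with a filter at the median signal. Bmp5, Bmp6 and Inha, the inhibin alpha subunit, were not called either. Bmp5 means were between 4.48 and 4.61, under the 25th percentile of gene means. Bmp6 was called higher in NDL, against Met1 (adjusted p = 0.0245) and SSM2 (0.00765), when NDL replicate 3 was left out. Inha had 1 high array, SSM2 replicate 3 at 6.08, with the other 8 between 4.67 and 5.09.

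**Figure D2:**
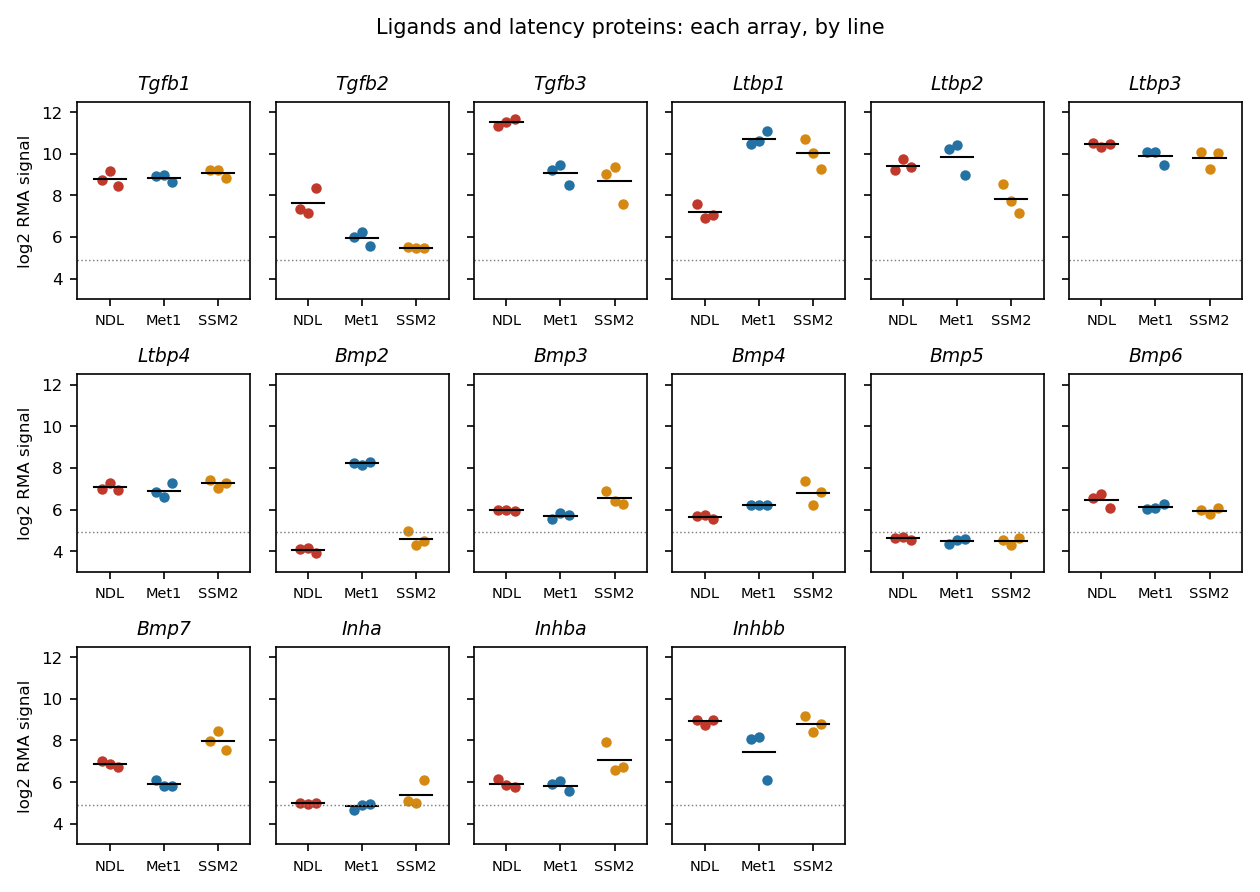
Each panel is a ligand or latency gene, each point an array (log2 RMA signal), the bar the mean of the line and the dotted line the 25th percentile of gene means, 4.91. The Met1 points for Bmp2 lie near 8.22, far above the dotted line, and the NDL points for Ltbp1 (mean 7.18) lie below those of the other lines.

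Among the receptors, Acvr1 and Tgfbr1 were lowest in NDL, and Tgfbr3 and Acvrl1 in SSM2. Acvr1 (feature 10482824), the type I receptor also called ALK2, read 7.18, 6.99 and 7.14 in NDL, 8.42, 8.35 and 8.29 in Met1 and 7.76, 7.79 and 7.38 in SSM2. The 3 lines did not overlap. NDL was 2.38-fold below Met1 (log2 difference -1.25, SE 0.13, adjusted p = 0.000415), and Met1 was 1.63-fold above SSM2 (0.71, adjusted p = 0.00898). NDL minus SSM2 was -0.54 (adjusted p = 0.0244), a call that ended without NDL replicate 1, NDL replicate 2, SSM2 replicate 1 or SSM2 replicate 2 (0.0586 to 0.0765). Tgfbr1, the type I receptor for TGF-beta, read 7.10, 6.95 and 8.32 in NDL, against 8.71 to 9.19 in Met1 and 8.67 to 9.67 in SSM2. NDL replicate 3 lay closer to the other lines than to the remaining NDL arrays. Bmpr1a, a type I receptor for BMPs, had a like spread in NDL, at 7.68, 6.86 and 8.84, against 8.87 to 9.34 in Met1 and 8.87 to 9.35 in SSM2. Its value of 8.87 was identical on Met1 replicate 3 and SSM2 replicates 2 and 3.

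Tgfbr1 was called lower in NDL, by -1.44 against Met1 (SE 0.39, adjusted p = 0.0333) and -1.61 against SSM2 (SE 0.39, adjusted p = 0.0252). The call against Met1 ended without NDL replicate 1 or 2 or without any 1 of the Met1 arrays (adjusted p from 0.0726 to 0.124). That against SSM2 ended without NDL replicate 1 or 2 or SSM2 replicate 1 (0.0715 to 0.0976). With both NDL replicates 1 and 2 left out, the differences shrank to -0.58 against Met1 and -0.74 against SSM2. Bmpr1a was not called (adjusted p = 0.0733 and 0.0845), and without NDL replicate 3 it was (0.0034 and 0.00379). It was also called in both comparisons with array weights, and against Met1 with a filter at the median signal. Acvr2a, an activin type II receptor, likewise read 6.97, 7.05 and 8.01 in NDL and was called against Met1 without NDL replicate 3 (0.0141). For these 3 receptors NDL replicate 3 had the highest NDL value, and NDL replicates 1 and 2 were the arrays with the lowest upper quartiles. The part of that array difference in the receptor values was not tested.

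Tgfbr3 (feature 10532085), the co-receptor betaglycan, read 7.77, 7.25 and 6.25 in SSM2, against 8.64 to 8.98 in NDL and 8.84 to 9.17 in Met1. All SSM2 arrays lay below the others. It was 3.70-fold higher in Met1 than in SSM2 (log2 difference 1.89, SE 0.33, adjusted p = 0.00742) and 3.26-fold higher in NDL than in SSM2 (1.70, SE 0.33, adjusted p = 0.0101, and 0.114 without NDL replicates 1 and 2). Acvrl1, a type I receptor of endothelial cells, was also lower in SSM2, at 6.87 to 7.28 against 7.38 to 7.89 in NDL and 7.77 to 8.04 in Met1. The difference of Met1 from SSM2 was 0.83 (adjusted p = 0.0134), and ended without Met1 replicate 3 or SSM2 replicate 2 (0.0545 and 0.05). That of NDL was 0.61 (adjusted p = 0.0367), and ended without NDL replicate 1 or 2, any Met1 array, or SSM2 replicate 2 or 3 (0.0505 to 0.12). The 10 endothelial markers ran the other way, with a list mean of 7.27 ± 0.35 in SSM2, 6.70 ± 0.05 in NDL and 6.73 ± 0.13 in Met1. In SSM2 3 of the 10 were called higher than in NDL and 1 higher than in Met1. Eng, the endothelial co-receptor endoglin, had means between 7.93 and 7.99 and was not called.

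The activin receptor Acvr1b was modestly higher in NDL than in either other line, and Acvr2b was higher in NDL than in Met1. Acvr1b read 8.39, 8.58 and 8.78 in NDL, against 7.78 to 8.14 in Met1 and 7.91 to 8.09 in SSM2. NDL lay above both, by 0.58 (adjusted p = 0.021) and 0.56 (adjusted p = 0.0285). The first call ended without NDL replicate 2, Met1 replicate 2 or Met1 replicate 3, and the other without NDL replicate 2, Met1 replicate 2, SSM2 replicate 1 or SSM2 replicate 2 (0.0504 to 0.0865 over these). Acvr2b was higher in NDL than in Met1 by 0.62 (adjusted p = 0.0253), which ended without NDL replicate 1 or 2 or any 1 of the Met1 arrays (0.0584 to 0.0913). Against SSM2 its difference of 0.25 was not called (adjusted p = 0.276), and the arrays overlapped. Bmpr2, Tgfbr2 and Bmpr1b were not called. The 95% confidence intervals for Bmpr2, the BMP type II receptor, lay within -0.35 and 0.43 in the 3 comparisons. Bmpr1b means were between 4.82 and 4.95, at the 25th percentile of gene means. Tgfbr2 was called between Met1 and SSM2 only without SSM2 replicate 1 (adjusted p = 0.0158).

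Of the secreted antagonists, the follistatin-related genes Fst, Fstl1 and Fstl3 were called, and Nog, Chrd, Chrdl1 and Grem1 were not. Fst (feature 10412260) encodes follistatin, which neutralises activins, and read 8.98, 8.90 and 9.52 in SSM2, 7.32, 7.58 and 7.84 in Met1 and 6.35, 6.71 and 6.42 in NDL. The lines formed 3 separate levels. NDL was 6.23-fold below SSM2 (log2 difference -2.64, SE 0.20, adjusted p = 9.97e-05) and 2.12-fold below Met1 (-1.08, adjusted p = 0.00685, and 0.0747 without NDL replicates 1 and 2). Met1 was 2.94-fold below SSM2 (-1.55, SE 0.20, adjusted p = 0.00188). Fst and Inhba, antagonist and ligand, were thus both highest in SSM2. Fstl3, a second activin-binding protein, was highest in Met1, at 8.43, 8.36 and 8.70, with 7.62 to 8.15 in SSM2 and 6.82 to 7.35 in NDL. NDL minus Met1 was -1.39 (SE 0.18, adjusted p = 0.00131). NDL minus SSM2 was -0.77 (adjusted p = 0.0242), and ended without NDL replicate 1, SSM2 replicate 1 or SSM2 replicate 3 (0.0567 to 0.0715). Met1 minus SSM2 was 0.62 (adjusted p = 0.0654), and passed without NDL replicate 3 or SSM2 replicate 3 (0.0345 to 0.0429).

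Fstl1, a secreted glycoprotein made by mesenchymal cells, was lowest in Met1. It read 6.66, 8.13 and 8.37 there, 9.50, 9.34 and 9.30 in NDL and 10.52, 9.76 and 9.41 in SSM2. Met1 replicate 1 was the lowest array by about 1.5 log2 units. Met1 minus SSM2 was -2.17 (SE 0.44, adjusted p = 0.0146, and 0.0509 in a fit of these lines alone) and NDL minus Met1 was 1.66 (SE 0.44, adjusted p = 0.0316). The latter ended without NDL replicate 1, NDL replicate 2 or Met1 replicate 2 (0.0522 to 0.106). Fibroblast markers moved with it only in part, with 3 of 10 called lower in Met1 than in SSM2 and 2 higher, and 3 of 10 higher in NDL than in Met1 and 2 lower. The fibroblast list mean ranged from 8.40 to 9.25 in Met1, 8.83 to 9.08 in NDL and 8.93 to 10.48 in SSM2, and its part in the Fstl1 difference was not tested. Nog, Chrd, Chrdl1 and Grem1, which sequester BMPs, were not called, and their line means spanned 0.20 to 0.55. Nog was called higher in NDL without NDL replicate 3, against Met1 (adjusted p = 0.0292) and SSM2 (0.0183).

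**Figure D3:**
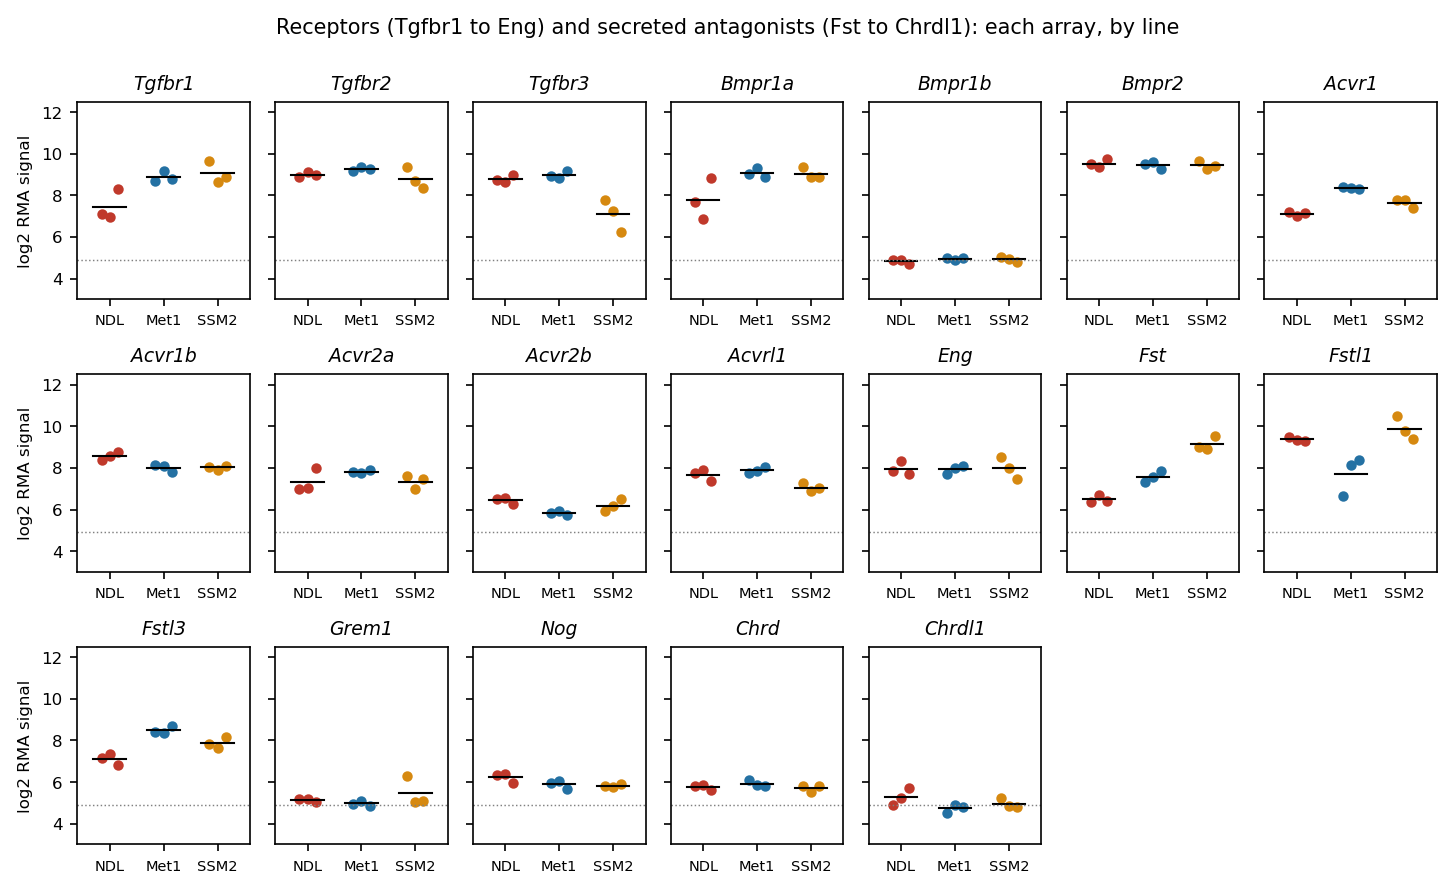
Each panel is a receptor or antagonist, each point an array (log2 RMA signal), the bar the mean of the line and the dotted line the 25th percentile of gene means, 4.91. Fst rises in steps from NDL (mean 6.50) through Met1 (7.58) to SSM2 (9.13), and the NDL points for Tgfbr1 and Bmpr1a are spread, with replicate 3 at 8.32 and 8.84.

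Smad1 and Smad5 of the BMP arm were lower in NDL, and the TGF-beta-arm Smads did not pass. Smad1 (feature 10579860) read 6.62, 6.65 and 6.70 in NDL, 7.67, 7.59 and 7.89 in Met1 and 7.42, 7.45 and 7.38 in SSM2. Smad5 (feature 10405605) read 8.04, 8.01 and 8.48 in NDL, 9.39, 9.32 and 9.27 in Met1 and 9.13, 9.13 and 9.17 in SSM2. For each of them the NDL arrays lay below all others. Smad1 was 2.09-fold lower in NDL than in Met1 (a log2 difference of -1.06, SE 0.10, adjusted p = 0.000301) and 1.69-fold lower than in SSM2 (-0.76, adjusted p = 0.00184). Smad5 was 2.22-fold lower in NDL than in Met1 (-1.15, SE 0.13, adjusted p = 0.00073) and 1.96-fold lower than in SSM2 (-0.97, adjusted p = 0.00212). These 4 calls held under all 19 alternatives. Smad9, the remaining BMP-arm Smad and not a member, was not called, with NDL minus Met1 at -0.54 (adjusted p = 0.201) and NDL minus SSM2 at 0.23 (0.568).

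Smad2, Smad3 and the shared Smad4 were not called. Smad3, which carries TGF-beta and activin signals, had means of 8.90 ± 0.12, 8.88 ± 0.20 and 8.73 ± 0.34 in NDL, Met1 and SSM2, and Smad4 had 9.51 ± 0.36, 9.55 ± 0.13 and 9.80 ± 0.29. The 95% confidence interval for NDL minus Met1 was -0.40 to 0.43 for Smad3 and -0.50 to 0.44 for Smad4. Smad2 passed between NDL and SSM2 only without NDL replicate 3 (adjusted p = 0.0352). Smad7, an inhibitory Smad that TGF-beta itself induces, read 7.98, 7.22 and 7.33 in SSM2, 9.27, 9.22 and 8.56 in Met1 and 8.53, 7.99 and 8.95 in NDL. The Met1 arrays were above the SSM2 arrays, and the NDL mean was between theirs. Met1 minus SSM2 was 1.51 (SE 0.31, adjusted p = 0.0154), and ended without Met1 replicate 1, Met1 replicate 2 or SSM2 replicate 2 (0.0583 to 0.0679). NDL minus SSM2 was 0.98 (adjusted p = 0.063), and passed without NDL replicate 2 or SSM2 replicate 1 (0.0431 to 0.0432). Smad6, which restrains the BMP arm, was not called (0.113 between Met1 and SSM2, 0.0953 between NDL and SSM2), and passed in both comparisons without NDL replicate 3 (0.045 and 0.0136).

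By their calls the 4 Id genes followed 4 different patterns, though Id1 and Id3 shared the order Met1, SSM2, NDL. Id1 (feature 10477169) read 9.74, 9.60 and 9.27 in Met1, 8.11, 8.13 and 8.14 in SSM2 and 7.66, 7.65 and 7.24 in NDL. Id3 (feature 10509163) read 6.70, 6.53 and 5.97 in NDL, 9.31, 9.38 and 8.89 in Met1 and 8.96, 8.79 and 8.81 in SSM2. NDL was the low line for each of them, and Met1 separated from SSM2 for Id1. Id1 was 4.06-fold lower in NDL than in Met1 (a log2 difference of -2.02, SE 0.16, adjusted p = 0.000106) and 2.65-fold higher in Met1 than in SSM2 (1.41, SE 0.16, adjusted p = 0.000952). Its NDL minus SSM2 difference of -0.61 (adjusted p = 0.0312) ended without NDL replicate 1 or 2, Met1 replicate 2 or any 1 of the SSM2 arrays (0.0512 to 0.0782), and with cyclic loess, equal medians or array weights. Id3 was 6.93-fold lower in NDL than in Met1 (-2.79, SE 0.20, adjusted p = 8.26e-05) and 5.48-fold lower than in SSM2 (-2.45, SE 0.20, adjusted p = 0.000151).

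Id4 and Id2 ran differently. Id4 (feature 10404975), expressed in basal mammary cells, read 8.04, 7.38 and 7.67 in NDL, 5.97, 6.16 and 5.68 in Met1 and 6.22, 6.13 and 5.73 in SSM2. It was the Id gene with NDL as the high line, and exceeded Met1 by 3.38-fold (log2 difference 1.76, SE 0.21, adjusted p = 0.000841) and SSM2 by 3.18-fold (1.67, adjusted p = 0.00128). The 8 basal and myoepithelial markers did not share this order, with a list mean of 6.72 ± 0.24 for NDL, 6.36 ± 0.57 for Met1 and 8.33 ± 0.29 for SSM2. Of these markers 3 were called higher in NDL than in Met1, while against SSM2 1 was higher and 4 lower in NDL. Id2 (feature 10399691), also a regulator of alveolar development, read 8.88, 8.09 and 7.56 in SSM2, against 10.53 to 10.79 in NDL and 10.26 to 10.65 in Met1. It was low in SSM2 alone among the 3 lines, 5.52-fold below NDL (2.47, SE 0.29, adjusted p = 0.000961) and 5.05-fold below Met1 (2.34, SE 0.29, adjusted p = 0.00163). Tgfbi, a matrix protein named for its induction by TGF-beta, was not called. It read 8.85, 9.63 and 8.55 in NDL, where Tgfb2 and Tgfb3 were highest, and 9.93 to 10.79 in Met1. NDL minus Met1 was -1.22 (SE 0.42, adjusted p = 0.0785), and passed without SSM2 replicate 1 or 3 (0.0475 to 0.0491). It also passed with a filter at the median signal.

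**Figure D4:**
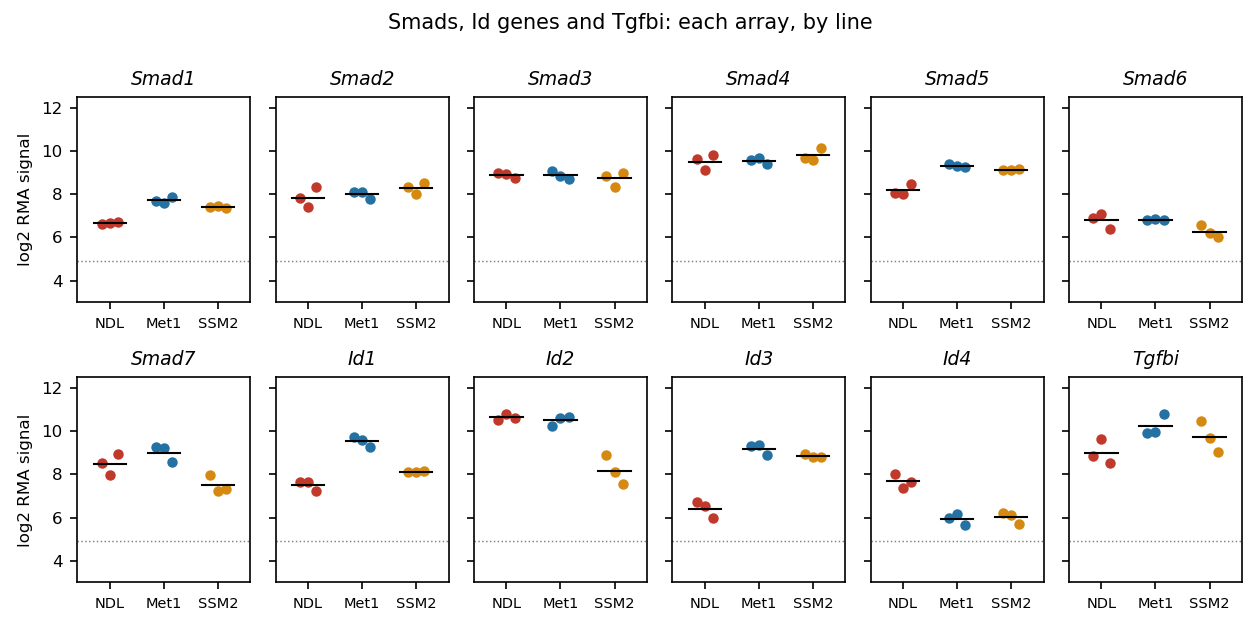
Each panel is a Smad, an Id gene or Tgfbi, each point an array (log2 RMA signal), the bar the mean of the line and the dotted line the 25th percentile of gene means, 4.91. Smad1, Smad5, Id1 and Id3 have their lowest points in NDL, Id4 has its highest points there, and Id2 has its lowest points in SSM2 (mean 8.18).

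Promoter sequence is shown for the Id genes because they are known targets of the BMP arm and parted into different patterns. RefSeq windows (build GRCm38.p6) were on hand for 34 of the 47 members, among them Id2, Id3 and Id4 but not Id1 or Bmp2. The 250 bases before the start site are printed 5′ to 3′ on the gene's own strand, with capitals for 2 short motifs known to bind Smads, GGCGCC (a palindrome bound by BMP-arm Smads) and CAGAC, each searched on both strands. None of these 3 windows held both motifs. The Id2 window lies at chr12:25096093-25096342 on the minus strand, that of Id3 at chr4:136143572-136143821 on the plus strand and that of Id4 at chr13:48260866-48261115 on the plus strand.
Id2: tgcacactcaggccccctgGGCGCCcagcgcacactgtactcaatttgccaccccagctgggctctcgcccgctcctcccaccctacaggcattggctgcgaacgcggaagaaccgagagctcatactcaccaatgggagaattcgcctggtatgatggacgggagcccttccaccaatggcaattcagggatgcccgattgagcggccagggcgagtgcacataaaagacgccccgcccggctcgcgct
Id3: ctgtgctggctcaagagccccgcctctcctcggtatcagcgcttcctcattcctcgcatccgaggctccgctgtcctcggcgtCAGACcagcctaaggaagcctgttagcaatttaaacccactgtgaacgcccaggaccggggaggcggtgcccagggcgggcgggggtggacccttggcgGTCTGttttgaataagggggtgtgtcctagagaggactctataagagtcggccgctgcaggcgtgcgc
Id4: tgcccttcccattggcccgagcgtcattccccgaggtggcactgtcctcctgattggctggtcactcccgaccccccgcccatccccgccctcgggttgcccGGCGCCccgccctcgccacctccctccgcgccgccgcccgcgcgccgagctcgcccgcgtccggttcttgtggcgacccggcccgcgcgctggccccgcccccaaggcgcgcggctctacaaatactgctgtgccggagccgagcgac
Id3, low in NDL, had CAGAC matches starting 167 and 68 bases before the start site, the latter on the opposite strand, and no GGCGCC. Id4, high in NDL, and Id2, low in SSM2, each had 1 GGCGCC match, starting 148 and 231 bases before the start, and no CAGAC. Among 32851 RefSeq windows of 250 bases, 9.59% held GGCGCC and 42.2% held CAGAC. Over the 42 windows of the 34 members, some with several start sites, 11 held GGCGCC and 20 held CAGAC. Of the 3 Ltbp4 windows 2 overlap and hold the same GGCGCC site, which is counted in each. Base composition was not compared between the member windows and the rest. A match is a description of these letters and not a shown binding site.

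**Figure D5:**
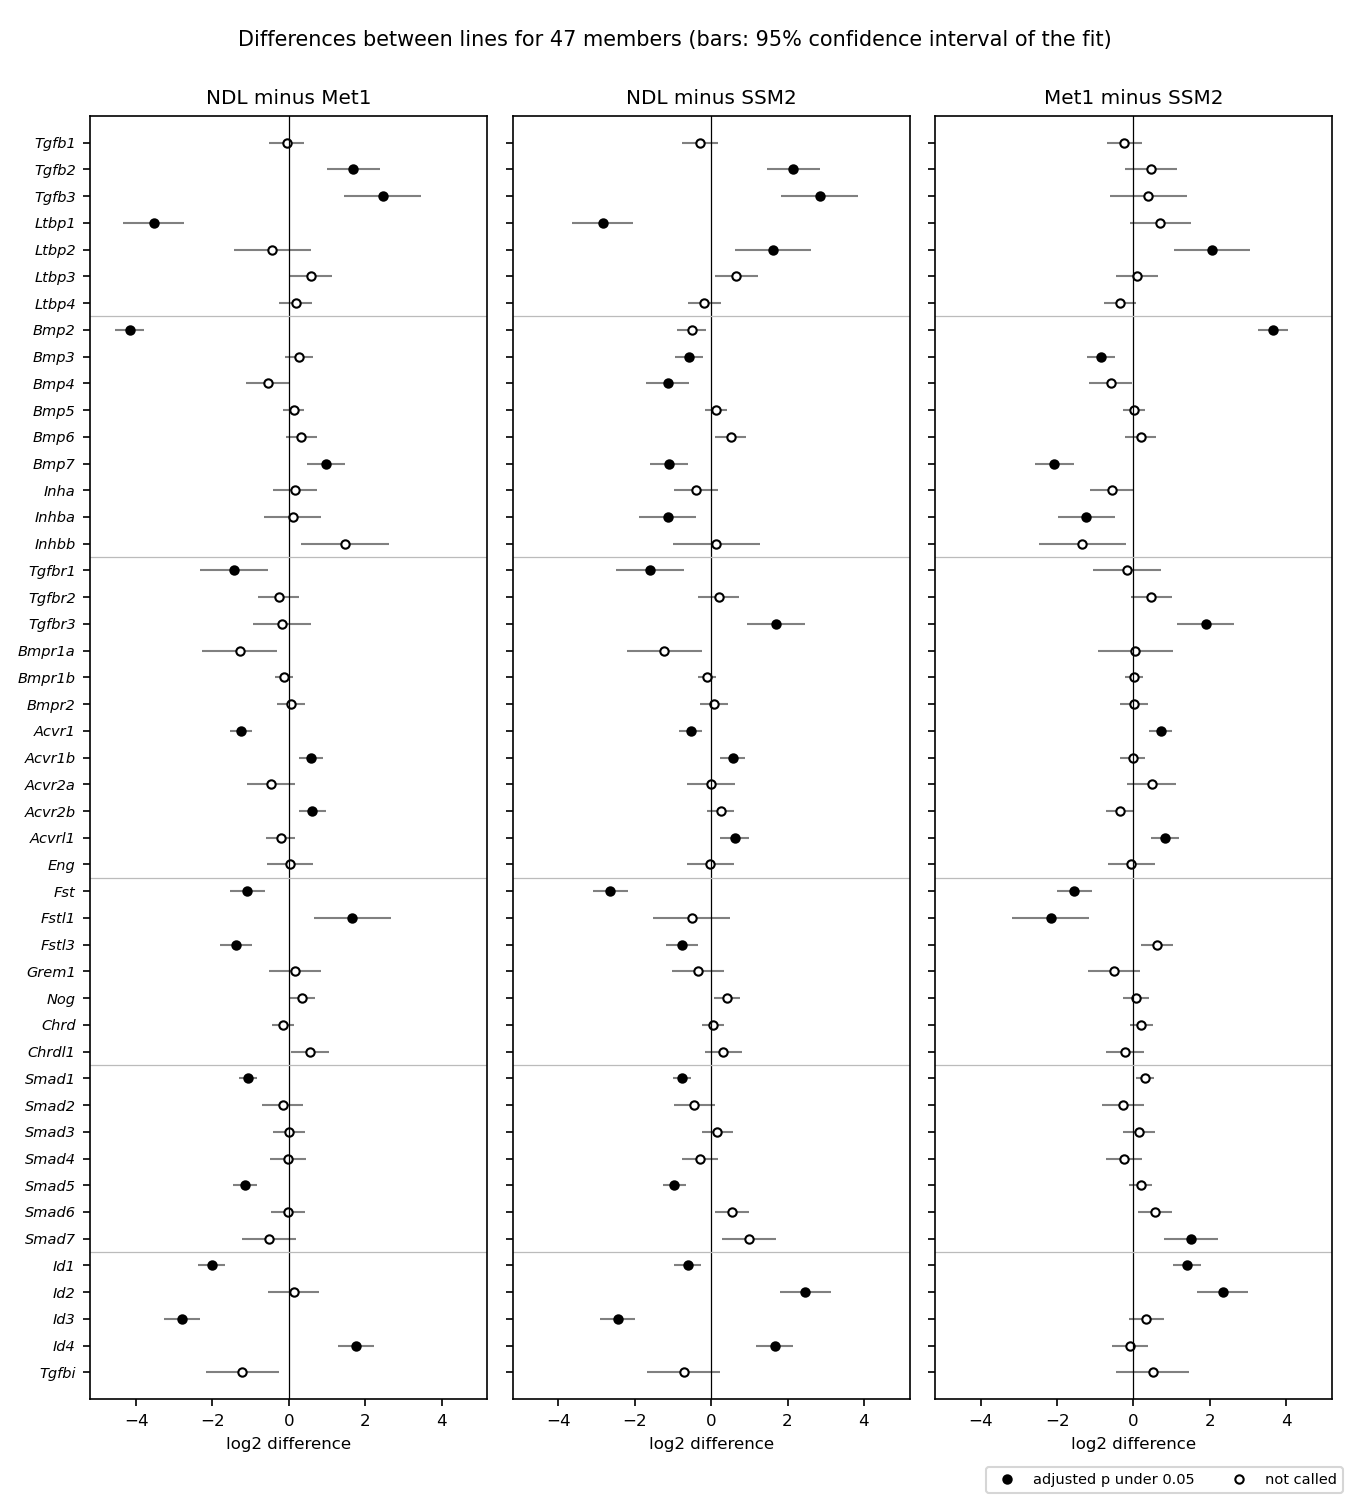
Each row is a member in order of role and each panel a comparison; points are log2 differences, filled where the adjusted p was under 0.05, and bars are 95% confidence intervals of the limma fit. Bmp2 has the longest distance from 0, at -4.17 for NDL minus Met1 and 3.65 for Met1 minus SSM2, and most receptors and Smads lie within 1 log2 unit of 0.

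Complete separation of arrays was more common than a call. Arrays of NDL and Met1 did not overlap for 25 of the 47 members, beside 38.2% of all genes, those of NDL and SSM2 for 27 (31.6%) and those of Met1 and SSM2 for 23 (31.7%). A member was assigned to a line where both comparisons of that line were called in the same direction. NDL was highest for Tgfb2, Tgfb3, Acvr1b and Id4, 4 members beside 5.13% of all genes. It was lowest for 9 members, Ltbp1, Tgfbr1, Acvr1, Fst, Fstl3, Smad1, Smad5, Id1 and Id3, beside 3.59%. Met1 was highest for 3, Bmp2, Acvr1 and Id1 (4.09%), and lowest for 2, Bmp7 and Fstl1 (2.18%). SSM2 was highest for 4, Bmp3, Bmp7, Inhba and Fst (1.91%), and lowest for 4, Ltbp2, Tgfbr3, Acvrl1 and Id2 (2.26%). The assignments of Tgfbr1, Acvr1b, Bmp3, Inhba, Fstl1, Acvrl1 and Ltbp2, those of Acvr1, Fstl3 and Id1 as lowest in NDL, and that of Bmp7 as lowest in Met1 each rested on a call that ended when 1 array was left out, as given with each gene. The comparisons share arrays and are not independent of each other.

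Other genes of the pathway, listed by role and not members, were measured for 69 of 73. Between NDL and Met1 15 of them were called, 4 higher and 11 lower in NDL, a share of 21.7% that is near the 19.1% of all genes. Hey1, a BMP and Notch target, was 6.99-fold higher in NDL (log2 difference 2.80, SE 0.37, adjusted p = 0.0013), and the ubiquitin ligase gene Nedd4l (1.39) and the decoy receptor Bambi (1.17) were higher too. The protease gene Htra1 (-2.43), the ligand Gdf11 (-2.24, adjusted p = 8.18e-05) and the repressor Snai1 (-1.65) were lower in NDL. Between NDL and SSM2 20 were called (29.0%, beside 16.9% of all genes), 8 higher and 12 lower in NDL. Hey1 (3.64), Bambi (1.39) and the co-receptor Rgma (1.26) led the higher genes, and the proteoglycan decorin gene Dcn (-3.38), the BMP antagonist Sostdc1 (-2.11) and Snai2 (-2.04) the lower ones. Between Met1 and SSM2 15 were called (21.7%, beside 11.8% of all genes), 8 higher and 7 lower in Met1. Ccn1 (2.03), Gdf11 (1.99) and Snai1 (1.48) were higher in Met1, and Dcn (-3.89), the TGF-beta-activating integrin gene Itgb6 (-3.73) and the BMP target Msx2 (-2.47) were lower.

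Host and tumour cell markers moved with some of these results and not with others. In SSM2 replicates 1, 2 and 3 the fibroblast list mean was 10.48, 9.68 and 8.93 and the macrophage list mean 9.50, 8.80 and 8.13. Ltbp1, Ltbp2, Tgfbr3, Id2, Fstl1 and Tgfbi, among other members, also were highest in SSM2 replicate 1 and lowest in replicate 3, for example 10.48, 9.67 and 9.03 for Tgfbi. Other members did not follow, and Fst, Smad4, Acvr2b and Inha were highest in replicate 3, for example 8.98, 8.90 and 9.52 for Fst. The epithelial list mean was also highest in replicate 3, at 10.80, 10.82 and 10.98. Neither order was counted over all genes. The part of cell composition in these values was not tested. Macrophage markers were called lower in NDL than in Met1 for 7 of 8 and higher in Met1 than in SSM2 for 5 of 8, and epithelial markers higher in NDL than in Met1 for 10 of 10. The contrasts of NDL with Met1 therefore set samples with different epithelial and macrophage signal side by side. Between NDL and SSM2, 1 of 10 epithelial, 1 of 8 macrophage, 1 of 10 fibroblast, 3 of 10 endothelial and 4 of 8 basal and myoepithelial markers were called lower in NDL, and 1 basal and myoepithelial marker higher. In that comparison Ltbp1, Fst, Id3, Smad1 and Smad5 were lower and Tgfb2, Id2 and Id4 higher in NDL under every alternative that tested them. None of the alternatives adjusted for cell markers, and the part of cell composition in these differences was not tested.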

How the data were processed

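Total RNA (100 ng) of 9 frozen tumour tissue samples was hybridised to Affymetrix Mouse Gene 1.0 ST arrays. Per the submitters' processing notes, RMA in oligo 1.40.2 gave the deposited signals, which are on a log2 scale. RMA corrects background, equalises distributions and summarises probes, which compresses differences near background. The genome build behind the features is not given in the sources used here. Of 35556 features, 21789 carried 1 gene symbol, 1621 several and 12146 none. Symbols were updated by gene ID to RefSeq of GRCm38.p6 (21698 matched, 91 kept theirs), and the feature with the highest mean stood for a gene, leaving 19938 genes with no filter on signal.

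The log2 values were fitted as deposited in limma 3.58.1 (R 4.3.3) with lmFit and eBayes over the 9 arrays (residual degrees of freedom 6, prior 2.42). The F-test and the 3 contrasts (two-sided) each had Benjamini-Hochberg adjustment over all genes and calls at 0.05. Errors of means are SDs, those of differences the model's standard errors. The procedure was tested on simulated data. The text names every measured member and, per comparison, up to 3 other pathway genes in each direction with the largest called differences. The members and lists were chosen with earlier results of these data known. Alternatives were filters on mean signal, a robust fit with an intensity trend, array weights, averaging the features of a gene, rescaling by equal medians or by cyclic loess, the replicate number as a block, fits of 2 lines alone, and arrays left out. Figures were drawn with matplotlib 3.10.9.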

Additional observations from a re-analysis of the deposited data

How the results depend on the processing

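Across 19 alternatives, 25 of the 51 called member differences passed wherever they were tested, 26 lost the call in at least 1, and 0 changed direction. Not every alternative was a separate check. Averaging the features of a gene left the values of all members as they were, since each had 1 feature. Between Met1 and SSM2, leaving out NDL replicates 1 and 2 gave the same result as the fit of those lines alone. Without NDL replicates 1 and 2 the calls were 11 between NDL and Met1 (3 higher), 8 between NDL and SSM2 (3 higher, 5 lower), 3 lower between Met1 and SSM2, and 16 in the F-test, from fewer arrays. Fits of 2 lines alone gave 12 calls between NDL and SSM2, 6 of them lower, beside 8.80% of all genes. They gave 3 lower between Met1 and SSM2, where 11.6% of all genes were called in either direction. A filter at the median signal, which left 33 members, gave 3 lower between Met1 and SSM2. Of the genes it kept, 20.1% were called there in either direction. That filter and equal medians each added Smad7 between NDL and SSM2, and cyclic loess added Bmp2 there. Array weights added Fstl3 and Smad6 between Met1 and SSM2, and the fit of 2 lines alone added Bmp4 between NDL and Met1. Leaving out 1 array gave 12 to 21 calls between NDL and Met1 (3 to 9 higher, 9 to 12 lower), 12 to 24 between NDL and SSM2 (5 to 11 higher, 6 to 13 lower), 9 to 14 between Met1 and SSM2 (5 to 10 higher, 3 to 6 lower), and 19 to 30 in the F-test. The share of all genes called moved as well, over 11.9% to 33.3%, 9.39% to 35.2% and 6.82% to 13.8% in the 3 comparisons. For the F-test it was 25.1% with all 9 arrays and was not counted with arrays left out. The F-test counts with arrays left out can therefore not be set beside all genes. Samples share replicate numbers that the labels do not tie to an animal or day, and deviations from the line means correlated at -0.35 to 0.29 between arrays of the same number, so the numbers were not taken as pairs. With the replicate block, 13 members were called between NDL and Met1 (4 higher), beside 16.8% of all genes. That setting gave 17 between NDL and SSM2 (13.9% of all genes) and 13 between Met1 and SSM2 (9.87%). Features near background, such as Bmp2 outside Met1, Bmp5 and Bmpr1b, limit what can be said of their size. No array scan dates were used here.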
